A study of Mus musculus with 28 samples.

Results

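The transcripts of 10 genes were followed that mouse embryonic stem cells (ESCs) use to answer fibroblast growth factor (FGF) and to limit that answer. They are the ligand gene Fgf4, the sprouty genes Spry1, Spry2 and Spry4, their relatives Spred1 and Spred2, the phosphatase genes Dusp4 and Dusp6, and the transcription factor genes Etv4 and Etv5. They were chosen by symbol, and all 10 were among the 17342 genes of the RNA-seq table. The study asks what Tet2, an enzyme that oxidizes 5-methylcytosine in DNA, does in ESCs apart from its catalytic activity. RNA-seq covered 7 libraries of V6.5 ESCs, a male line of mixed 129 and C57BL/6 background kept in serum with the self-renewal factor LIF. The groups were Tet2-WT (n = 3 independent cultures), Tet2-Mut (n = 2 clones carrying a mutant Tet2 that the labels do not describe further) and Tet2-KO (n = 2 knockout clones). All cells had been grown on feeder fibroblasts, which were removed by pre-plating, and then spent a night on gelatin before RNA was taken. Samples for DNA methylation and chromatin binding, also part of the study, were not analysed here.

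FGF binds a receptor tyrosine kinase with heparan sulfate as a cofactor, and adaptors then switch on Ras, which drives the Raf, MEK and ERK kinases. In ESCs, Fgf4 made by the cells themselves is the main FGF, and ERK activity opens the way from self-renewal to lineage choice. ERK also induces its own brakes: sprouty and Spred proteins act on Ras and Raf, DUSP enzymes take phosphate off ERK, and Etv4 and Etv5 carry the signal to target genes. The transcript levels of these brakes are widely read as a record of recent ERK activity, although RNA-seq measures only the transcripts and no kinase activity was measured.

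Tet2 itself was at 10343, 10244 and 12074 normalized counts in Tet2-WT, 9992 and 13181 in Tet2-Mut, and 4624 and 5206 in Tet2-KO. Both Tet2-KO clones stood below every other library, and both Tet2-Mut clones retained the transcript. A normalized count is the number of reads of a gene divided by the size factor of the library, so it compares libraries but not genes of different length. Libraries held 41.9 M to 58.5 M reads assigned to genes. Pou5f1, Sox2, Nanog and the other genes of a list of 10 ESC markers were detected in every library, with a summed level of 179290 normalized counts in Tet2-KO replicate 1 and of 206090 to 223870 in the other libraries. Of these, Tbx3 fell in Tet2-KO against Tet2-WT, and Tbx3 and Nanog fell in Tet2-Mut against Tet2-WT (limma, adjusted p = 0.00847, 0.00580 and 0.0457).

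The promoters of the members are shown because CpG sites are where Tet2 oxidizes methylated cytosine. RefSeq sequence of GRCm38.p6 (mm10), 250 bases upstream of a start, was examined for 7 of the 10 members. It gave 8 promoters, 2 of them for Etv5. Those printed belong to Spred2 and Etv5, which differed between genotypes, and to Spry2 and Spred1, which parted the Tet2-Mut clones. They lie at chr11:19924192-19924441 (plus strand, Spred2), chr16:22439571-22439820 (minus strand, Etv5), chr14:105896820-105897069 (minus strand, Spry2) and chr2:117120821-117121070 (plus strand, Spred1). Each is written 5′ to 3′ on the strand of its gene, with CpG dinucleotides in capitals.
Spred2: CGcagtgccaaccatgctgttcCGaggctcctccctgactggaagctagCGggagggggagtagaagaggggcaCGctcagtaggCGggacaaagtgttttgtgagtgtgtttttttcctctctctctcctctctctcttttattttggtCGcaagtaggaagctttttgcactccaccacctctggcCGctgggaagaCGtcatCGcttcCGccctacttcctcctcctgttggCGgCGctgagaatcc
Etv5: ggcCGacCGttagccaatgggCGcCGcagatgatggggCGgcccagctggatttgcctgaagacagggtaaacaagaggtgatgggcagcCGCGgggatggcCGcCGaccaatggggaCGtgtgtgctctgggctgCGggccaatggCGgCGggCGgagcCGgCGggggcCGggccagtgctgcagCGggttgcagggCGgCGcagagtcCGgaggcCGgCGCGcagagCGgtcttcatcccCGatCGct
Spry2: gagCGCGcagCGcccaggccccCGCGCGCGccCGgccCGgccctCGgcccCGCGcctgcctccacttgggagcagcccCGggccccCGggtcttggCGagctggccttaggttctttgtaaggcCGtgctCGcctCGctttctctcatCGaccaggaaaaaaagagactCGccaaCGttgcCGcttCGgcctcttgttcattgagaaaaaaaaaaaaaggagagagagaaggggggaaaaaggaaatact
Spred1: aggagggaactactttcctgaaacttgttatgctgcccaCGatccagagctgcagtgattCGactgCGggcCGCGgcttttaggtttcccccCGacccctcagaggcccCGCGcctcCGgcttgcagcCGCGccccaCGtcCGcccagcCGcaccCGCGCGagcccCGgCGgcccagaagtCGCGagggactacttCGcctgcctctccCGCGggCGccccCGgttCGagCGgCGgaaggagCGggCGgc

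Spred1 had 31 CpG dinucleotides in this window, the Etv5 promoters 27 and 18, Spry1 and Spry2 23 each, Fgf4 21, Dusp6 16 and Spred2 12. Over all 32851 promoters of the same length the median was 6 and the quartiles were 2 and 16. Each of these 8 promoters thus exceeded the median. At the ends of the range, 5.19% of promoters had at least as many CpGs as Spred1 and 33.5% at least as many as Spred2. Promoters of Spry4, Dusp4 and Etv4 were not examined. The ETS letters CCGGAAG, the AP-1 letters TGACTCA and the CRE letters TGACGTCA, which factors downstream of ERK can recognize, were searched on both strands, and no motif contains another. None of the 8 promoters held any of them, against 6.91%, 4.46% and 1.55% of all promoters. At such low rates a set of 8 promoters may well hold none, so the search cannot show a lack of these sites. Only these exact letters were searched, and variants that the factors may also recognize were not counted.

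Spry4 was the 1 member of 10 that passed the test in all 3 comparisons. Its value in Tet2-KO against Tet2-Mut is the difference of its 2 values against Tet2-WT, so the 3 passes are not independent. The share of all genes that passed in all 3 was not counted. In Tet2-KO against Tet2-WT, Spry4 fell and Etv5 rose, and the other 8 members did not pass the test. With limma at a Benjamini-Hochberg adjusted p under 0.05, 5.91% of all 17338 genes tested were called in this comparison, 3% higher and 2.91% lower. In Tet2-Mut against Tet2-WT Spry4 rose and was the single member called, where 3.43% of all genes were called, 1.44% higher and 1.98% lower. In Tet2-KO against Tet2-Mut, Spry4, Etv4 and Spred2 fell, where 6.19% of all genes were called, 2.64% higher and 3.55% lower. With a limma prior variance that does not follow the mean, 0 members passed in each comparison, and 3, 2 and 3 had an unadjusted p under 0.05. Of all genes 0.11%, 0% and 0.0577% then passed. On the recovered reads edgeR called 2, 2 and 3 members, beside 6.39%, 3.36% and 6.08% of all genes. DESeq2 called 2, 2 and 4 members, beside 11.5%, 9.03% and 10.4% of all genes.

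The median log2 fold change of the 10 members was -0.04 in Tet2-KO against Tet2-WT, 0.30 in Tet2-Mut against Tet2-WT and -0.35 in Tet2-KO against Tet2-Mut, while the medians of all genes lay within 0.01 of 0. In Tet2-KO 2 members lay above and 5 below every Tet2-WT culture, and 21.9% and 22.8% of all genes did so, 44.7% in all. In Tet2-Mut 3 members, Spry4, Spred2 and Etv5, lay above every Tet2-WT culture, as did 20.9% of all genes, and 0 lay below, as did 19.8% (40.7% in all). Against Tet2-Mut, 1 member lay higher and 5 lay lower in both Tet2-KO clones, beside 23.3% and 21.5% of all genes, 44.8% in all. The comparisons with Tet2-WT share its 3 cultures, so they are not independent of each other.

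**Figure D1:**
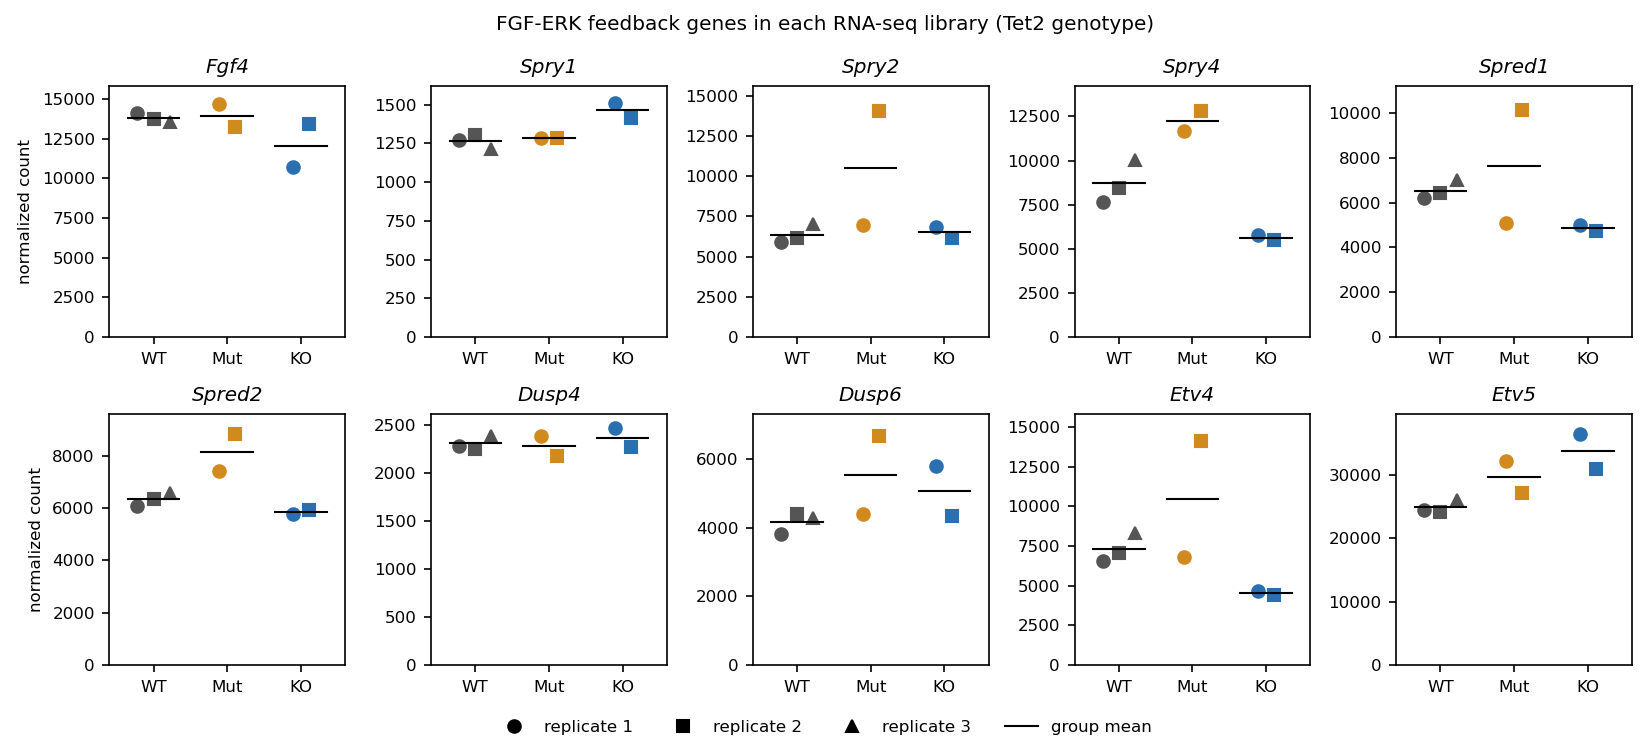
Normalized counts on linear axes from 0 of the 10 members in the 7 RNA-seq libraries, with 1 point per library shaped by replicate number and a line at each group mean. Spry4 lies highest in both Tet2-Mut clones and lowest in both Tet2-KO clones, and Spry2, Spred1 and Etv4 show 1 high Tet2-Mut clone.

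**Figure D2:**
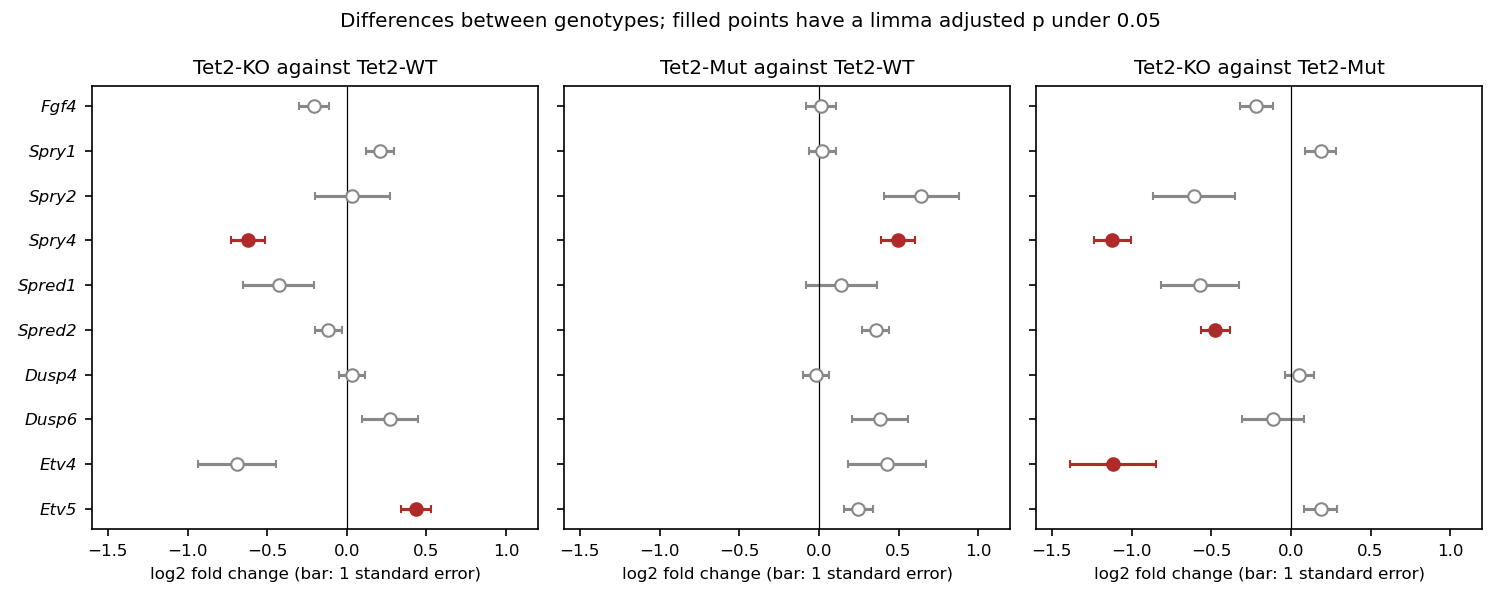
Log2 fold changes of the members in the 3 comparisons, with bars of 1 standard error from limma and filled points at an adjusted p under 0.05. Spry4 is filled in each panel, Etv5 in Tet2-KO against Tet2-WT, and Spred2 and Etv4 in Tet2-KO against Tet2-Mut.

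The sprouty genes did not move as a block. Spry4 (chr18:38586247-38601347), an inhibitor of receptor tyrosine kinase signalling to Ras, had normalized counts of 7666, 8458 and 10006 in Tet2-WT, 11673 and 12809 in Tet2-Mut, and 5761 and 5494 in Tet2-KO. No library of one group overlapped another group, and the clones of a genotype lay close together. The means were 8710 ± 1190 (SD, n = 3) in Tet2-WT, 12241 ± 803 (SD, n = 2) in Tet2-Mut and 5627 ± 188 (SD, n = 2) in Tet2-KO.

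The log2 fold change of Spry4 was -0.62 (SE 0.11) in Tet2-KO against Tet2-WT and 0.50 (SE 0.11) in Tet2-Mut against Tet2-WT (limma, adjusted p = 0.0159 and 0.0399). In Tet2-KO against Tet2-Mut, Spry4 fell by 1.12 on the log2 scale (SE 0.12, limma adjusted p = 0.00382), a 2.17-fold lower mean. That last difference held with each library left out in turn, at log2 values from -1.19 to -1.05 over all alternatives. It missed the threshold in limma without the mean trend and with only its 2 groups (adjusted p = 0.0581 and 0.0671), settings in which 10 and 0 of all genes passed. The fall against Tet2-WT was lost when Tet2-WT replicate 2, Tet2-WT replicate 3 or Tet2-KO replicate 1 was left out (limma, adjusted p = 0.0736, 0.0554 and 0.0871). The rise in Tet2-Mut was lost without Tet2-WT replicate 1 or 2 or Tet2-Mut replicate 2 (limma, adjusted p = 0.176, 0.182 and 0.124).

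Spry2 (chr14:105891947-105896819), the sprouty family member best known as a Ras-ERK brake in many tissues, gave 5879, 6133 and 7047 in Tet2-WT, 6982 and 14037 in Tet2-Mut, and 6860 and 6141 in Tet2-KO. A single library, Tet2-Mut replicate 2, stood apart at about 2.01 times its sister clone, and the rest overlapped. The mean of Tet2-Mut was therefore 10510 ± 4989 (SD, n = 2), and its log2 fold change of 0.64 (SE 0.23) against Tet2-WT did not pass limma's test (adjusted p = 0.164). Against Tet2-WT, Tet2-Mut replicate 2 alone gave 1.15 and replicate 1 alone gave 0.14 (limma, adjusted p = 0.000631 and 0.585). Those p-values rest on the spread of the other groups, since a single Tet2-Mut library has none of its own. In Tet2-KO against Tet2-WT the log2 value was 0.04 (SE 0.23, limma adjusted p = 0.952).

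Spry1 (chr3:37639947-37644599), which in the embryo restrains signalling in the developing kidney, read 1274, 1304 and 1214 in Tet2-WT, 1283 and 1284 in Tet2-Mut, and 1513 and 1411 in Tet2-KO. Both Tet2-KO clones were above all others, by a margin that did not pass the test (log2 fold change 0.21, SE 0.09, limma adjusted p = 0.190). The Tet2-Mut clones sat inside the Tet2-WT range. Divided by Spry2 within each library, Spry4 was at 1.30, 1.38 and 1.42 in Tet2-WT, 1.67 and 0.91 in Tet2-Mut, and 0.84 and 0.89 in Tet2-KO. The Tet2-KO clones had the lowest ratios of this pair, which was chosen after its values were seen. In a two-sided exact permutation test of Tet2-KO against Tet2-WT p was 0.1, the smallest that its 10 arrangements allow.

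Spred proteins bring neurofibromin, which turns Ras off, to the membrane. Spred2 (chr11:19924442-20024026) was at 6053, 6334 and 6576 in Tet2-WT, 7411 and 8831 in Tet2-Mut, and 5748 and 5903 in Tet2-KO. Its groups did not overlap and stood in the same order as those of Spry4, over a narrower span. In Tet2-KO against Tet2-Mut, Spred2 fell by 0.47 on the log2 scale (SE 0.09, limma adjusted p = 0.0187), a call lost without Tet2-WT replicate 2, Tet2-Mut replicate 2 or Tet2-KO replicate 1 (0.0553, 0.0526 and 0.0837). Against Tet2-WT the value was 0.36 (SE 0.08) in Tet2-Mut and -0.12 (SE 0.08) in Tet2-KO, neither past the test (limma, adjusted p = 0.0542 and 0.451).

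The counts of Spred1 (chr2:117121071-117182279) were 6204, 6406 and 6988 in Tet2-WT, 5108 and 10118 in Tet2-Mut, and 4977 and 4720 in Tet2-KO. The Tet2-Mut clones lay on either side of the Tet2-WT range, while both Tet2-KO clones lay below it. In Tet2-KO the log2 difference from Tet2-WT came to -0.43 (SE 0.22, limma adjusted p = 0.293). It passed the test without Tet2-Mut replicate 1 or without replicate 2 (limma, adjusted p = 0.00568 and 0.00605), since the clones of Tet2-Mut share in the estimate of the spread.

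The related factors Etv4 and Etv5, both ETS activators of the PEA3 family and close relatives by sequence, took different courses. Etv4 (chr11:101769747-101785310) had 6569, 7063 and 8317 in Tet2-WT, 6790 and 14111 in Tet2-Mut, and 4652 and 4389 in Tet2-KO. Both Tet2-KO clones were below every other library, and Tet2-Mut replicate 2 was far above its sister. Etv4 fell in Tet2-KO against Tet2-Mut by 1.12 on the log2 scale (SE 0.27, limma adjusted p = 0.0443).

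The wide spread of the Tet2-Mut clones bears on each test of Etv4. The fall against Tet2-Mut was lost without any one of the Tet2-WT or Tet2-KO libraries and on values relative to the chromosome median (limma, adjusted p = 0.0579). Against Tet2-WT, Etv4 in Tet2-KO had a log2 fold change of -0.69 (SE 0.25) that did not pass with all 7 libraries (limma, adjusted p = 0.136). It passed without Tet2-Mut replicate 1 or replicate 2 (limma, adjusted p = 0.00255 and 0.00275). In Tet2-Mut against Tet2-WT the log2 value was 0.43 (limma, adjusted p = 0.361), and without Tet2-Mut replicate 2 it was -0.10.

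Etv5 (chr16:22381313-22439570) was at 24472, 24218 and 26012 in Tet2-WT, 32258 and 27104 in Tet2-Mut, and 36579 and 30986 in Tet2-KO. All 4 clones lay above all 3 Tet2-WT cultures, and the 2 clone groups overlapped each other. The log2 fold change was 0.44 (SE 0.09) in Tet2-KO against Tet2-WT (limma, adjusted p = 0.0318) and 0.25 (SE 0.09) in Tet2-Mut against Tet2-WT (limma, adjusted p = 0.179). Leaving out Tet2-WT replicate 1, 2 or 3, or else replicate 1 of Tet2-KO, ended the call in Tet2-KO (limma, adjusted p = 0.121, 0.125, 0.0923 and 0.202).

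Within a library the ratio of Etv5 to Etv4 counts was 3.73, 3.43 and 3.13 in Tet2-WT, 4.75 and 1.92 in Tet2-Mut, and 7.86 and 7.06 in Tet2-KO. Both Tet2-KO clones exceeded every other library, and the Tet2-Mut clones spanned the Tet2-WT cultures. The ratio compares libraries only, since it depends on the lengths of both transcripts, and it was chosen after its values were seen. For Tet2-KO against Tet2-WT the two-sided exact permutation p was again 0.1, which this design cannot go below.

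With limma's main settings and all 7 libraries, the member phosphatases Dusp4 and Dusp6 and the ligand Fgf4 showed no difference past the test in any comparison. Dusp6 (chr10:99263231-99267489), a cytoplasmic phosphatase specific for ERK, gave 3830, 4411 and 4274 in Tet2-WT, 4401 and 6693 in Tet2-Mut, and 5810 and 4339 in Tet2-KO. A clone each of Tet2-Mut and Tet2-KO was high, and the other sat inside the Tet2-WT range. The log2 fold changes were 0.27 (SE 0.18) for Tet2-KO and 0.38 (SE 0.18) for Tet2-Mut against Tet2-WT (limma, adjusted p = 0.404 and 0.253).

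Dusp4 (chr8:34807610-34819894), a nuclear phosphatase of ERK and related kinases, stayed between 2183 and 2468 in all 7 libraries, with 2289, 2259 and 2389 in Tet2-WT, 2387 and 2183 in Tet2-Mut, and 2468 and 2273 in Tet2-KO. Its groups overlapped, and its 3 log2 fold changes were 0.03, -0.02 and 0.05 (limma, adjusted p = 0.849, 0.929 and 0.795). Fgf4 (chr7:144861386-144865245) had 14120, 13758 and 13536 in Tet2-WT, 14666 and 13228 in Tet2-Mut, and 10692 and 13419 in Tet2-KO. Tet2-KO replicate 1 was the lowest library and replicate 2 lay just under the Tet2-WT range. Relative to Tet2-WT, Fgf4 in Tet2-KO had a log2 value of -0.20 (SE 0.10, limma adjusted p = 0.239). That value was -0.04 without Tet2-KO replicate 1 and -0.37 without replicate 2, and the latter passed limma's test (adjusted p = 0.0335) with a single Tet2-KO library. Without replicate 2, Fgf4 also passed against Tet2-Mut, at -0.38 (limma, adjusted p = 0.0437).

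**Figure D3:**
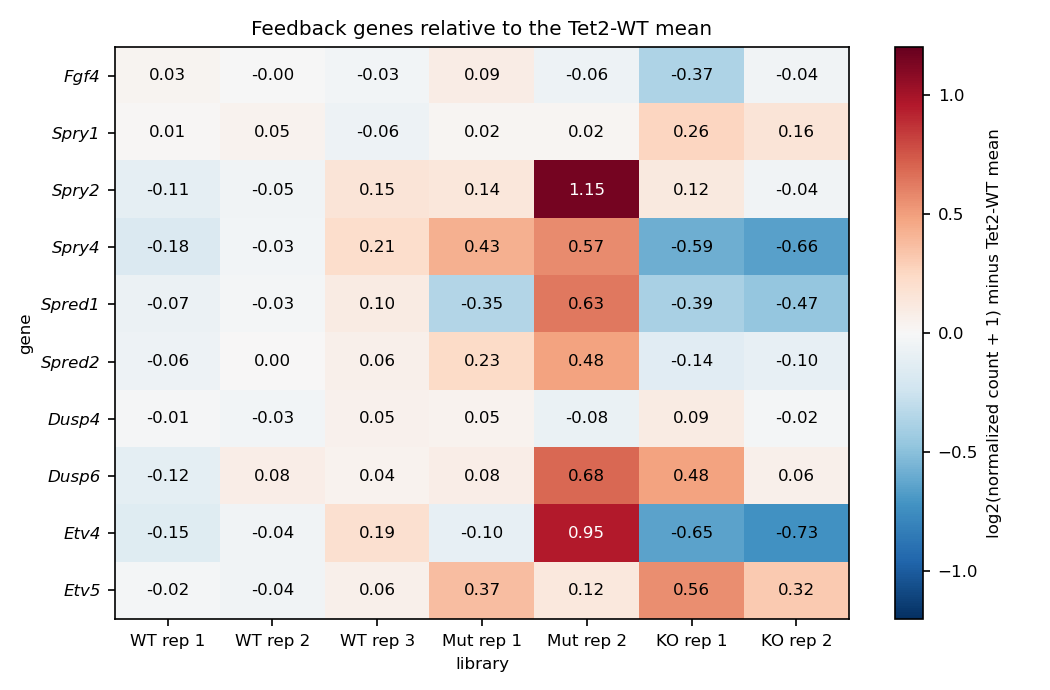
Log2(normalized count + 1) of each member (rows) in each library (columns) minus the Tet2-WT mean of that gene, printed in the cell and coloured from blue (lower) to red (higher). The deepest red cells, Spry2 at 1.15 and Etv4 at 0.95, lie in Tet2-Mut replicate 2, and the deepest blue, Etv4 at -0.73 and Spry4 at -0.66, in Tet2-KO replicate 2.

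The 2 Tet2-Mut clones differed in 4 of the 10 members by over 0.5 on the log2 scale, where 26.4% of all genes did. Replicate 2 was higher in each of them, by 2.08-fold for Etv4, 2.01-fold for Spry2, 1.98-fold for Spred1 and 1.52-fold for Dusp6. Between 9.03% and 21.8% of all genes had a gap at least as large, so these gaps were wide but not rare. Spry4 differed 1.10-fold and Spred2 1.19-fold between the same clones. The Tet2-KO clones and the Tet2-WT cultures had no member with a span over 0.5, against 23.0% and 25.9% of all genes. Without Tet2-Mut replicate 1, 6 members passed the test in Tet2-Mut against Tet2-WT (Spry2, Spry4, Spred1, Spred2, Dusp6 and Etv4), where 12.7% of all genes then passed. Without replicate 2 limma called 0, with 4 at an unadjusted p under 0.05, and 1.26% of all genes. Either way the Tet2-Mut arm is a single library, assumed to vary like the Tet2-WT cultures and Tet2-KO clones, so these counts hold no spread between Tet2-Mut clones.

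Chromosome-wide levels differed between libraries on 2 of the chromosomes that carry members. On chromosome 8, the home of Dusp4, the median of 860 genes relative to the Tet2-WT mean was 0.29 and 0.27 in Tet2-Mut and -0.28 and -0.24 in Tet2-KO, on the log2 scale. On chromosome 14, the home of Spry2, the median of 568 genes was 0.49 in Tet2-Mut replicate 2 and -0.05 in replicate 1. Every other chromosome stayed within 0.09 of 0 in each library, chromosome 18 with Spry4 included.

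Values relative to the median of the own chromosome, an alternative chosen after these shifts were seen, gave other values for Dusp4 and Spry2. Dusp4 was then 0.58 higher on the log2 scale in Tet2-KO than in Tet2-Mut (limma, adjusted p = 0.0141), where the unadjusted level gave 0.05. The log2 value of Spry2 in Tet2-Mut against Tet2-WT dropped from 0.64 to 0.42 (limma, adjusted p = 0.115). Spred2 in Tet2-Mut against Tet2-WT came to 0.38 and passed the test (limma, adjusted p = 0.0433). Spry4 kept all its calls, at -0.64, 0.48 and -1.12 (limma, adjusted p = 0.0102, 0.0403 and 0.00599). The part of these shifts in the other members' values was not tested beyond this alternative.

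**Figure D4:**
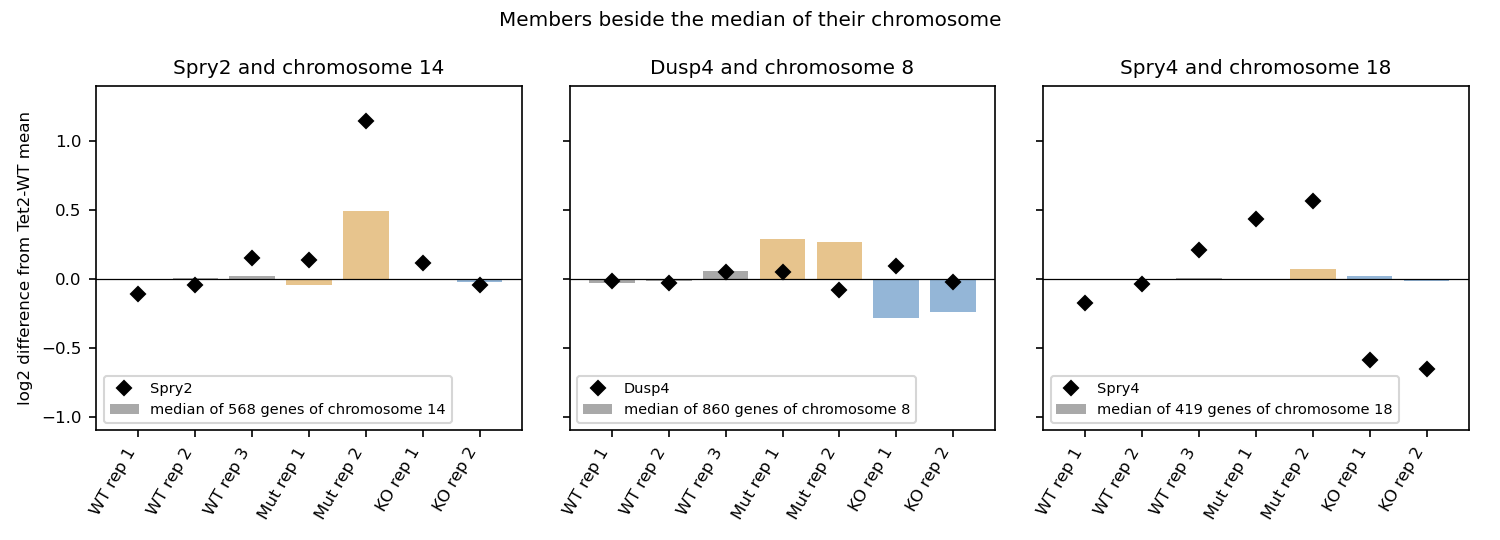
Log2 difference from the Tet2-WT mean in each library for Spry2, Dusp4 and Spry4 (diamonds) and for the median gene of the chromosome each lies on (bars). Dusp4 stays near 0 while its chromosome lies at 0.29 and 0.27 in Tet2-Mut and at -0.28 and -0.24 in Tet2-KO, and Spry4 moves on a chromosome that stays near 0.

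The 5 genes outside the members that came closest to Spry4 in their course over the 7 libraries were taken from 11478 genes with a mean of at least 100. Likeness was the root mean square difference of the centred log2 values, on which Spry4 itself differs from a flat line by 0.44. They were Bnc2, which encodes a zinc finger protein, at 0.10, Dctd, a deoxycytidylate deaminase, at 0.10, and Purg, Coq9 and Esyt3 at 0.12, 0.12 and 0.13. Dctd, Purg and Coq9, 3 of the 5, lie on chromosome 8, whose median was shifted in the same directions. Among the members Etv4 at 0.25 and Spred2 at 0.27 were the most like Spry4, and Etv5 at 0.55 was the least.

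Of the wider FGF-ERK pathway, 70 of 78 listed genes were tested. In Tet2-KO against Tet2-WT 5 were called higher and 4 lower (median log2 fold change 0.02), which is 12.9% of them against 5.91% of all genes. In Tet2-Mut against Tet2-WT 4 and 3 were called (median 0.03), or 10% against 3.43%, and in Tet2-KO against Tet2-Mut 4 and 3 (median -0.02), or 10% against 6.19%. Most of these calls were lost when single libraries were left out. Calls over all genes also became fewer without any one Tet2-WT culture. In Tet2-KO against Tet2-WT 0.49% to 0.566% of all genes then passed, and in Tet2-Mut against Tet2-WT 0.0346% to 0.71%. In Tet2-KO against Tet2-Mut 3.06% to 3.81% passed. The share of calls over all genes that held throughout was not counted. With each of the 7 libraries left out in turn, 1 of the 9 calls held throughout in Tet2-KO against Tet2-WT, 0 of 7 in Tet2-Mut against Tet2-WT and 4 of 7 in Tet2-KO against Tet2-Mut. Those that held were Dusp1 in the first comparison and Fgf1, Fgfr1, Fgfr2 and Gab1 in the last. Each of the other calls was lost without Tet2-WT replicate 1 and without replicate 2, and adjusted p-values reached 0.291 in limma.

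Among the 12 FGF ligand genes tested besides the member Fgf4, the highest by count was Fgf17. That rank does not allow for gene length. Fgf1 rose in Tet2-Mut, with 138, 153 and 151 in Tet2-WT, 339 and 411 in Tet2-Mut, and 134 and 163 in Tet2-KO. Both Tet2-Mut clones were above all others, and the Tet2-KO clones lay on either side of Tet2-WT. Fgf1 had a log2 fold change of 1.34 in Tet2-Mut against Tet2-WT and of -1.33 in Tet2-KO against Tet2-Mut (limma, adjusted p = 0.0168 and 0.00819). Fgf8, a ligand of the primitive streak, was at 15.0, 21.7 and 23.6 in Tet2-WT, 45.3 and 13.5 in Tet2-Mut, and 190 and 121 in Tet2-KO.

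The rise of Fgf8 in Tet2-KO against Tet2-WT was 2.88 on the log2 scale (SE 0.52, limma adjusted p = 0.0187), at low counts, and it was lost without any one Tet2-WT culture or Tet2-KO replicate 1. Fgf5, a ligand that marks exit from naive pluripotency, read 128, 125 and 102 in Tet2-WT, 227 and 17.4 in Tet2-Mut, and 1192 and 725 in Tet2-KO. Its Tet2-Mut clones lay on either side of Tet2-WT, and both Tet2-KO clones were the highest. Fgf5 passed the test against Tet2-Mut (log2 fold change 3.85, limma adjusted p = 0.0384) and not against Tet2-WT (2.97, limma adjusted p = 0.0659). The former call was lost without any one Tet2-WT or Tet2-KO library. Fgf17, on chromosome 14, rose in Tet2-Mut against Tet2-WT by 0.91 (limma, adjusted p = 0.0430).

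Of 5 receptor genes, Fgfr2 fell in Tet2-Mut, at 1557, 1370 and 1218 in Tet2-WT, 768 and 590 in Tet2-Mut, and 1262 and 1559 in Tet2-KO. The Tet2-KO clones lay in or at the edge of the Tet2-WT range and above Tet2-Mut by 1.06 on the log2 scale (SE 0.17, limma adjusted p = 0.00882). Against Tet2-WT the fall of Tet2-Mut was -1.03 (limma, adjusted p = 0.0188) and was lost without Tet2-WT replicate 1 or 2. Fgfr1, the main receptor for Fgf4 in ESCs and a gene of chromosome 8, was at 6777, 6498 and 7002 in Tet2-WT, 7920 and 8309 in Tet2-Mut, and 6099 and 5956 in Tet2-KO. Its groups did not overlap, and its difference between Tet2-KO and Tet2-Mut was -0.43 (SE 0.07, limma adjusted p = 0.00948). Relative to its chromosome that value was 0.09 (limma, adjusted p = 0.509). Fgfr3 fell in Tet2-KO against Tet2-WT by 0.96 (limma, adjusted p = 0.0431).

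Of 26 genes for adaptors and the Ras-ERK cascade, 1 passed the test in Tet2-Mut against Tet2-WT and in Tet2-KO against Tet2-Mut. This was Gab1, with log2 fold changes of 0.46 and -0.76 (limma, adjusted p = 0.0350 and 0.00455). Gab1, an adaptor downstream of the receptor and another gene of chromosome 8, was at 18383, 19748 and 22176 in Tet2-WT, 25802 and 29394 in Tet2-Mut, and 16707 and 15896 in Tet2-KO. Its groups kept the order seen for Spry4, and none of its libraries overlapped another group. Relative to the chromosome median both calls of Gab1 were lost, at 0.19 in Tet2-Mut against Tet2-WT and -0.23 in Tet2-KO against Tet2-Mut (limma, adjusted p = 0.221 and 0.203). Ksr1, a scaffold of the cascade, fell by 0.62 in Tet2-KO against Tet2-WT (limma, adjusted p = 0.0311).

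Other brakes moved in both directions. Dusp1, a nuclear phosphatase of several MAP kinases, gave 4312, 4090 and 3949 in Tet2-WT, 3137 and 3091 in Tet2-Mut, and 2425 and 2742 in Tet2-KO. All 4 clones lay below all Tet2-WT cultures, and Dusp1 fell by 0.67 in Tet2-KO and by 0.40 in Tet2-Mut (limma, adjusted p = 0.00551 and 0.0354). Dusp9, an ERK phosphatase abundant in ESCs, fell by 0.45 in Tet2-KO against Tet2-WT, and Spred3 rose by 0.85 (limma, adjusted p = 0.0266 and 0.0126).

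Of 10 other ERK-induced genes, the receptor gene Epha2 rose against Tet2-WT by 0.42 in Tet2-KO and 0.56 in Tet2-Mut, and the cyclin gene Ccnd1 rose by 0.68 in Tet2-KO (limma, adjusted p = 0.0483, 0.0299 and 0.0156). Hs6st1, a heparan sulfate sulfotransferase, was the single one of 8 such enzymes to pass, at -0.43 in Tet2-Mut against Tet2-WT and 0.40 in Tet2-KO against Tet2-Mut (limma, adjusted p = 0.0359 and 0.0390). Myc, which did not pass, showed the same high clone as Spry2 and Etv4, with 1518, 2234 and 2336 in Tet2-WT, 2659 and 6873 in Tet2-Mut, and 3769 and 2131 in Tet2-KO. Myc was named after its values were seen.

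**Figure D5:**
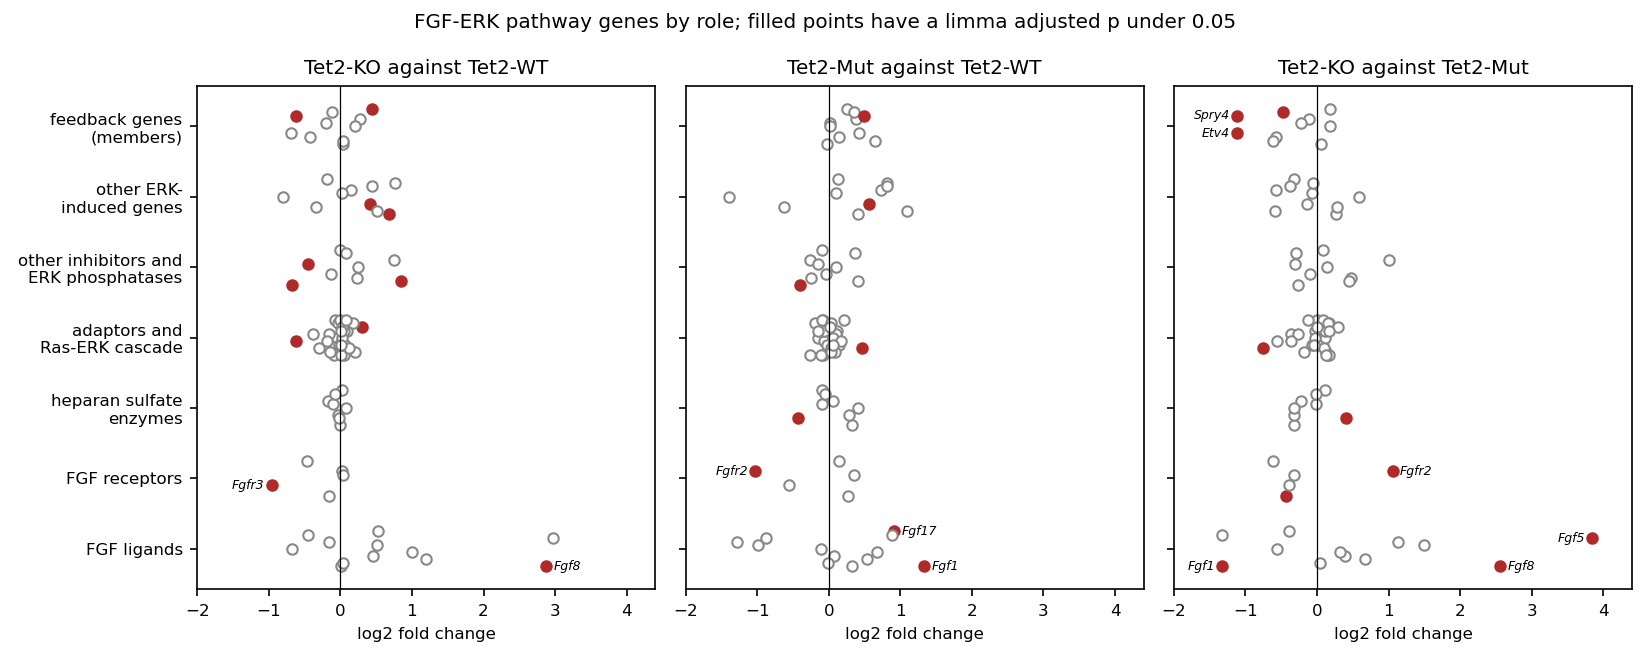
Log2 fold changes of the members and of 70 other FGF-ERK pathway genes, in rows by role and panels by comparison, with filled points at a limma adjusted p under 0.05. The cascade genes crowd around 0 and the ligands spread widest, with Fgf5 at 3.85 and Fgf8 at 2.56 in Tet2-KO against Tet2-Mut.

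Markers of some other cell types and states rose in Tet2-KO. The 7 primitive endoderm markers tested gave 0 calls against Tet2-WT, where 5.91% of all genes were called. So few genes cannot set 0 apart from that share. Of 27 fibroblast markers listed, Lum, Dcn and Fap were not among the genes of the RNA-seq data. Of the 24 tested, 8 rose in Tet2-KO against Tet2-WT and none fell, where 3% of all genes rose and 2.91% fell. None of these 24 was at 0 in any library. Their summed level was 63342 to 67339 normalized counts in Tet2-WT, 71675 and 56571 in Tet2-Mut, and 100470 and 77241 in Tet2-KO. Most of that sum came from Fn1 and Sparc, and without them it was 10591 to 11260 in Tet2-WT, 12667 and 9766 in Tet2-Mut, and 33417 and 18094 in Tet2-KO. Of 11 primitive streak markers and 8 formative pluripotency markers, 5 each rose in Tet2-KO against Tet2-WT and none fell, against the same 3% and 2.91% of all genes. Calls in this comparison were fewer without any one Tet2-WT culture, at 0.49% to 0.566% of all genes. The smallest p-values were those of Tagln, Col5a1 and Thbs1 among the fibroblast markers (log2 fold changes 2.27, 1.62 and 1.76), Sox3, Dnmt3b and Sall2 among the formative ones (2.47, 1.14 and 1.92), and T, Wnt3 and Lhx1 among those of the streak (4.62, 2.89 and 2.88). The summed formative level was 36457 to 37254 in Tet2-WT, 51875 and 41313 in Tet2-Mut, and 85267 and 65275 in Tet2-KO. Primitive streak markers summed to 787 to 936, 699 and 550, and 2375 and 1895 in the same order. Tet2-KO replicate 1, the library with the lowest ESC marker sum, had the highest sum of all 3 of these lists, the highest Etv5 and the lowest Fgf4. The lowest Spry4, Etv4 and Spred1 values lay in the other clone, Tet2-KO replicate 2, at 5494, 4389 and 4720 normalized counts. That of Spred2 lay in Tet2-KO replicate 1, at 5748. Between the Tet2-KO clones these genes differed by 1.027-fold to 1.06-fold. Of all genes, 75.7% to 88.4% had a gap at least as large, so which clone was lowest says little. The part of other cell types or states in the values of Spry4, Etv5 and the other members was not tested, and in bulk RNA fewer cells of a type and less RNA per cell cannot be told apart.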

How the data were processed

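RNA-seq of 7 libraries was used, from a series of 28 samples. The deposited values are a linear signal, gene counts that the authors divided by DESeq2 size factors. The submitters' processing notes name STAR 2.7.3a and Trim Galore 0.6.5, with featureCounts, DESeq2 and the build mm10. The strand setting was not given in the sources used here, so reads of a gene and of an antisense partner cannot be told apart. In each library 100% of values were whole multiples of a single step within 0.01 reads, which gave whole reads. In Tet2-WT replicate 1 the smallest value stands for more than a single read, so its step rests on the spacing of values. No gene had fewer than 71 reads over the libraries. Between 72.1% and 75.2% of values from 1 to 20 reads were even, so mates may have been counted separately. Replicates differed beyond sampling noise, with a chi-square of 7.15 to 44.2 per degree of freedom.

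Groups were compared with limma 3.58.1 (R 4.3.3) on the log2 of the normalized count plus 1, over the 17338 genes that reached 10 in at least 2 libraries. The model held 3 group means over all 7 libraries, a mean-dependent prior variance, and a Benjamini-Hochberg threshold of 0.05 over all genes. Residual degrees of freedom were 4 and the prior added 5.03. Clones differed more than the Tet2-WT cultures, so the shared spread can understate the spread between clones. Tet2-Mut and Tet2-KO replicates are clones, so p-values also hold what sets clones apart. Fold changes are on this log2 scale. edgeR 4.0.16 and DESeq2 1.42.0 were run on the recovered reads, and edgeR called 1108, 582 and 1054 genes in Tet2-KO against Tet2-WT, Tet2-Mut against Tet2-WT and Tet2-KO against Tet2-Mut. The limma steps were tested on simulated data. Coordinates and promoters are from RefSeq for GRCm38.p6, with 92.8% of symbols matched.

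The members and gene lists were chosen with earlier results of these data known. Named were Tet2, all members, pathway genes past the test or highest in their list, the 5 genes most like Spry4, and up to 3 markers per list by smallest p, of which not every one is given. Some pathway genes are not reported here. Myc and the ratios were chosen after their values were seen. Markers of primitive endoderm (7 tested) had 0 calls with limma in any comparison, and of 8 trophectoderm markers 3 rose in Tet2-KO and 2 fell in Tet2-Mut against Tet2-WT. In Tet2-KO 5 of these 8 trophectoderm markers had a negative log2 fold change, with 0 called lower.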

Additional observations from a re-analysis of the deposited data

Results flagged for a closer look

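The differences of 3 members between Tet2-KO and Tet2-Mut were marked, since their means moved in opposite directions from Tet2-WT in the 2 genotypes and the difference itself passed limma's test. For Spry4 this log2 difference was -1.1199 (adjusted p = 0.00382 with limma), lower in 2 of 2 Tet2-KO clones than in either Tet2-Mut clone. For Spred2 it was -0.4738 (limma, adjusted p = 0.0187), again in 2 of 2 clones. For Etv4 it was -1.1151 (limma, adjusted p = 0.0443), also in 2 of 2 clones, although Tet2-Mut replicate 1 lay inside the Tet2-WT range. Of these, only Spry4 passed the test against Tet2-WT, in both genotypes. The comparisons with Tet2-WT use the same 3 cultures. No group had 4 libraries, so single libraries were not screened as outliers.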

How the results depend on the processing

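Across 19 alternatives (pseudocounts of 0.5 and 10, other filters and scalings, edgeR, DESeq2, other limma settings, a replicate block, values relative to the chromosome median, and each library left out), most single-gene results kept their direction and their side of the threshold. Most of them had not passed in the first place. Of the member calls, that of Spry4 held in 14 of 19 in each comparison with Tet2-WT. In Tet2-KO against Tet2-Mut, Spry4 held in 17, Spred2 in 13 and Etv4 in 10. Etv5 in Tet2-KO against Tet2-WT held in 13. The number of members called in Tet2-KO against Tet2-WT (2 of 10) was 4 with only the 2 groups compared, where 12.5% of all genes passed in place of 5.91%. In Tet2-Mut against Tet2-WT (1 of 10) it was 2 with a pseudocount of 10, with edgeR, with DESeq2 and relative to the chromosome median, each adding Spred2 to Spry4. These settings called 3.75%, 3.36%, 9.03% and 2.77% of all genes, in place of 3.43%. In Tet2-KO against Tet2-Mut (3 of 10) the number of members called was 0 with only the 2 groups, with 3 at an unadjusted limma p under 0.05. In that setting 0 of all genes passed. The pathway count was 11 with DESeq2 in Tet2-Mut against Tet2-WT (7), 0 with only the 2 groups and 2 relative to the chromosome median in Tet2-KO against Tet2-Mut (7). The share of all genes called there was 9.03%, 0% and 2.9%. Without a mean trend in limma's prior every one of these 6 counts was 0, with 3, 2 and 3 members at an unadjusted p under 0.05. All genes called were then 19, 0 and 10.

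Deviations from the group mean correlated at -0.0729 to 0.0871 between same-numbered libraries and at -0.126 to 0.126 between others. The deviations of 2 clones mirror each other, so this check cannot exclude that same-numbered libraries were handled together. With a replicate block limma called 0, 0 and 1 members, 4 of 10 at most at an unadjusted p under 0.05, and 0, 0 and 3 pathway genes. All genes called were then 15, 7 and 467. Under the block the log2 value of Tet2-Mut against Tet2-WT turned for Spry1 (-0.0060), Dusp4 (0.0056) and Fgf4 (-0.0010), and upper quartile scaling gave -0.0001 for Fgf4, all next to 0.

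With libraries left out in turn, the members called ranged from 0 to 4 in Tet2-KO against Tet2-WT, from 0 to 6 in Tet2-Mut against Tet2-WT and from 1 to 5 in Tet2-KO against Tet2-Mut. The share of all genes called ranged with them, from 0.49% to 12.5%, from 0.0346% to 12.7% and from 3.06% to 15.5%. Where a clone is left out, its arm is a single library that is assumed to vary like the other groups. The pathway counts ranged from 1 to 13, from 0 to 21 and from 4 to 21. The highest counts came without Tet2-Mut replicate 1. Log2 values that changed sign were those of Spry2 (-0.0445 to 0.1151) and Dusp4 (-0.0246 to 0.0944) in Tet2-KO against Tet2-WT. In Tet2-Mut against Tet2-WT they were those of Spry1 (-0.0060 to 0.0452), Spred1 (-0.3532 to 0.6329), Dusp4 (-0.0824 to 0.0463), Etv4 (-0.1005 to 0.9546), Fgf4 (-0.0613 to 0.0875) and Tet2 (-0.1197 to 0.2799). In Tet2-KO against Tet2-Mut they were those of Dusp4 (-0.0114 to 0.1173) and Dusp6 (-0.4146 to 0.1901). None of these had passed the test. The cause was not tested. The lowest normalized count of a member was 1214 (Spry1).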
